A study of Mus musculus with 12 samples.

Results

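The osteochondrogenic and calcification genes described here are 10 genes of the bone, cartilage and tendon programs and of vascular calcification, chosen by name: *Runx1*, *Runx2*, *Sox9*, *Scx*, *Tnfrsf11b*, *Tnfsf11*, *Alpl*, *Mgp*, *Enpp1* and *Comp*. All 10 were found among the 54352 genes of the count table, and 9 passed the filter on low counts over the 12 libraries, the exception being *Alpl*. Bulk RNA of primary adventitial fibroblasts was sequenced in 4 groups of 3 libraries: descending control, descending TGFβ, ascending control and ascending TGFβ. Every culture came from wild-type C57Bl/6 mice, which the labels age at 14 weeks and the methods at a different age, and grew out of pieces of adventitia plated and passaged before treatment. Cells of the TGFβ groups received mouse TGFβ at 10 ng/mL for 48 h and those of the control groups the solute alone. By the methods, the ascending pieces included the aortic root, the descending pieces reached down to the renal arteries, and only male mice were used. The sources do not say whether the 3 libraries of a group came from separate animals, so p-values measure the spread between these cultures only.

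Runx2 is the transcription factor that drives osteoblast differentiation, Runx1 is a related factor that acts in blood formation and early cartilage, Sox9 is the master factor of cartilage, and scleraxis (*Scx*) marks tendon progenitors. RANK ligand (*Tnfsf11*) drives the formation of osteoclasts, and osteoprotegerin (*Tnfrsf11b*) is the soluble decoy receptor that captures it. Mineral deposition in a vessel wall is held back by matrix Gla protein (*Mgp*) and by pyrophosphate, which the ectoenzyme Enpp1 makes from ATP and tissue-nonspecific alkaline phosphatase (*Alpl*) breaks down. Cartilage oligomeric matrix protein (*Comp*) is a pentameric protein of cartilage, tendon and the vessel wall that binds collagen. TGFβ, the cytokine applied here, signals through SMAD2 and SMAD3 and acts on fibroblasts as an inducer of matrix genes.

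RefSeq promoters were available for 5 of the 10 genes (*Runx1* and *Alpl* with 2 start sites each, *Runx2*, *Tnfsf11* and *Enpp1*), while *Sox9*, *Scx*, *Tnfrsf11b*, *Mgp* and *Comp* had no entry in the table used. The 250 bases before the start are shown 5′ to 3′ on the gene's strand for a gene that rose with TGFβ in both sites (*Enpp1*), a gene that fell with TGFβ in descending fibroblasts (*Tnfsf11*) and the gene with almost no reads (*Alpl*, upstream start). Capitals mark matches of the motifs searched on both strands.
Enpp1: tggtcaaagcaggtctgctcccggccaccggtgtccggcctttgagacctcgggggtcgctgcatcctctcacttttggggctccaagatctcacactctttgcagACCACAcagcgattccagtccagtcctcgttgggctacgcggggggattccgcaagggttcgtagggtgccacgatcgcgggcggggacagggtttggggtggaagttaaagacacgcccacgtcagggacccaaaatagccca
Tnfsf11: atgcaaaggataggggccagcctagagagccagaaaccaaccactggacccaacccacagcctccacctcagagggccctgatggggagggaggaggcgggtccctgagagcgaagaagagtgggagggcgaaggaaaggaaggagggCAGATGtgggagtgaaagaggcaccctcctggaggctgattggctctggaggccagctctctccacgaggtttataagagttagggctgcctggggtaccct
Alpl: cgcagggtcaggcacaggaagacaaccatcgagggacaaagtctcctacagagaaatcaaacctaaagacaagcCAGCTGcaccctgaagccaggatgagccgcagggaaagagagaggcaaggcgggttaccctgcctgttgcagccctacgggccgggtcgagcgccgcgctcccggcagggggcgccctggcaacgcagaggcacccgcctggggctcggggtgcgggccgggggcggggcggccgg
In GRCm38.p6 these windows are chr10:24712160-24712409 for *Enpp1*, chr14:78308044-78308293 for *Tnfsf11* and chr4:137796385-137796634 for *Alpl*, all on the minus strand. The motifs were CAGACA (SMAD), TGTGGT (RUNX), TGANTCA (AP-1) and the E-boxes CAGCTG and CANNTG, of which the last takes in every match of the one before it. The *Enpp1* window held 1 RUNX match, read as ACCACA on the strand shown, whose leftmost base lay 144 bases before the start. A RUNX match also lay 80 bases before the start of *Runx2*, and 14.0% of the 32851 promoter windows of this length hold one. The *Tnfsf11* window held 1 CANNTG and the *Alpl* window 1 CAGCTG, letters that 66.2% and 13.0% of all windows hold. CAGACA (17.1% of all windows) and TGANTCA (6.75%) occurred in none of the windows of the 5 genes. A match describes the letters of the window and not a bound site.

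Library totals ran from 16250126 to 23892943 counted reads, and levels are given as normalized CPM, that is, counts brought to a common library size with edgeR's TMM factors. A gene with at most 3 counts was at the floor of a library, 0.117 to 0.207 normalized CPM, and floors cover counting error only. Descending control replicate 3 stood apart, with 13031 genes detected against 19337 to 20931 in the other libraries and 11.02% of its counts on mitochondrial genes against 0.703 to 1.03%. Against the mean of the other 2 descending controls this library had 2.49 times the *Runx1*, 1.76 times the *Runx2*, 1.62 times the *Sox9* and 1.64 times the *Enpp1*, but 0.0772 times the *Tnfrsf11b*, 0.432 times the *Tnfsf11*, 0.536 times the *Mgp*, 0.643 times the *Comp*, and no count of *Scx* or *Alpl*. Tests of the 10 genes that use descending controls are therefore given with and without it. All 8 fibroblast markers were above the floor in every library, and their summed level was 14329 to 26200 normalized CPM. Of the 5 osteoblast markers, *Ibsp* was at 0 in every library and the sum did not pass 3.73 normalized CPM, while the 7 chondrocyte markers included *Matn1* at 0 in every library and a sum of 62.1 to 648 that was mostly *Col2a1*. The 8 smooth muscle markers summed to 1584 to 1697 in ascending control, 5112 to 5199 in ascending TGFβ, 2513 to 2559 in descending control and 7967 to 8388 in descending TGFβ libraries. Most of that sum was *Acta2* (1425 to 8049), which activated fibroblasts also express; *Myh11* stood at 12.5 to 83.8, *Lmod1* at 34.4 to 93.3, *Smtn* at 55.5 to 96.0, *Cnn1* at 10.7 to 105 and *Myocd* at 0.731 or less. The 6 macrophage markers summed to 341 in ascending control replicate 2, to 51.1 and 56.1 in the other ascending controls and to 13.7 to 45.04 elsewhere. The 4 adipocyte markers summed to 22.4 to 30.6 in descending control, 9.74 to 18.5 in descending TGFβ and at most 5.00 in ascending libraries. The 4 mesothelial markers summed to 16.3 to 40.0 in ascending and at most 1.69 in descending libraries. In ascending libraries most of the mesothelial sum was *Upk3b* (14.7 to 37.1), and *Wt1* had at most 1 count in any library. The 6 endothelial markers summed to 24.4 to 27.9 in ascending control, 4.86 to 5.73 in ascending TGFβ, 23.9 to 26.8 in descending control and 9.65 to 11.3 in descending TGFβ libraries, with *Pecam1* at 0.300 and *Cdh5* at 0.260 or less. The 4 Schwann cell markers summed to 14.9 to 25.9 in ascending and 10.8 to 24.8 in descending libraries. Most of the Schwann sum was *S100b* (8.58 to 18.3 in ascending and 10.0 to 24.8 in descending libraries). *Sox10* was at 1.70 to 2.87 in ascending libraries and at 0 in every descending one. The 4 cardiomyocyte markers summed to 3.36 to 8.04 in ascending and 0.428 to 1.51 in descending libraries. In ascending libraries most of that sum was *Tnnt2* (3.27 to 7.75), and *Myh6* was at 0 in every library. The 3 tenocyte markers summed to at most 4.42 in any library. Whether cells of these types were present, and what part they had in the results, was not tested.

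With TGFβ the 10 genes moved in both directions. In ascending fibroblasts *Tnfrsf11b*, *Enpp1*, *Scx*, *Runx1*, *Sox9* and *Runx2* rose, *Mgp* and *Comp* fell, and *Tnfsf11* and *Alpl* were too low to test. These are 8 of 8 genes tested, in a comparison that called 55.8% of the 13917 genes tested (edgeR's quasi-likelihood F-test with Benjamini-Hochberg adjustment over all genes tested, two-sided, adjusted p under 0.05, as for every test here). In descending fibroblasts *Tnfrsf11b* and *Enpp1* rose and *Tnfsf11* and *Comp* fell, 4 of 9 genes tested against a background of 8.07% (3.59% higher and 4.48% lower). *Tnfsf11* passed the filter on low counts only through descending control, where it is high, so its calls in the comparisons with that group add no support to these counts. Without descending control replicate 3, *Runx1*, *Scx* and *Mgp* rose and *Runx2* fell as well, so that 8 of 9 passed against a background of 52.9%. Leaving out any 1 of the other 5 libraries of the descending comparison left 0 or 1 of the 10 genes past the threshold. Those fits called 213 to 474 of all genes, so the loss was not particular to the 10 genes. The library ranges of treated and control cultures did not overlap for 8 of the 8 genes tested in ascending fibroblasts, where 61.3% of all genes tested did not, and for 7 of 9 in descending fibroblasts, where 43.5% did not (8 of 9 and 67.7% without descending control replicate 3).

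**Figure D1:**
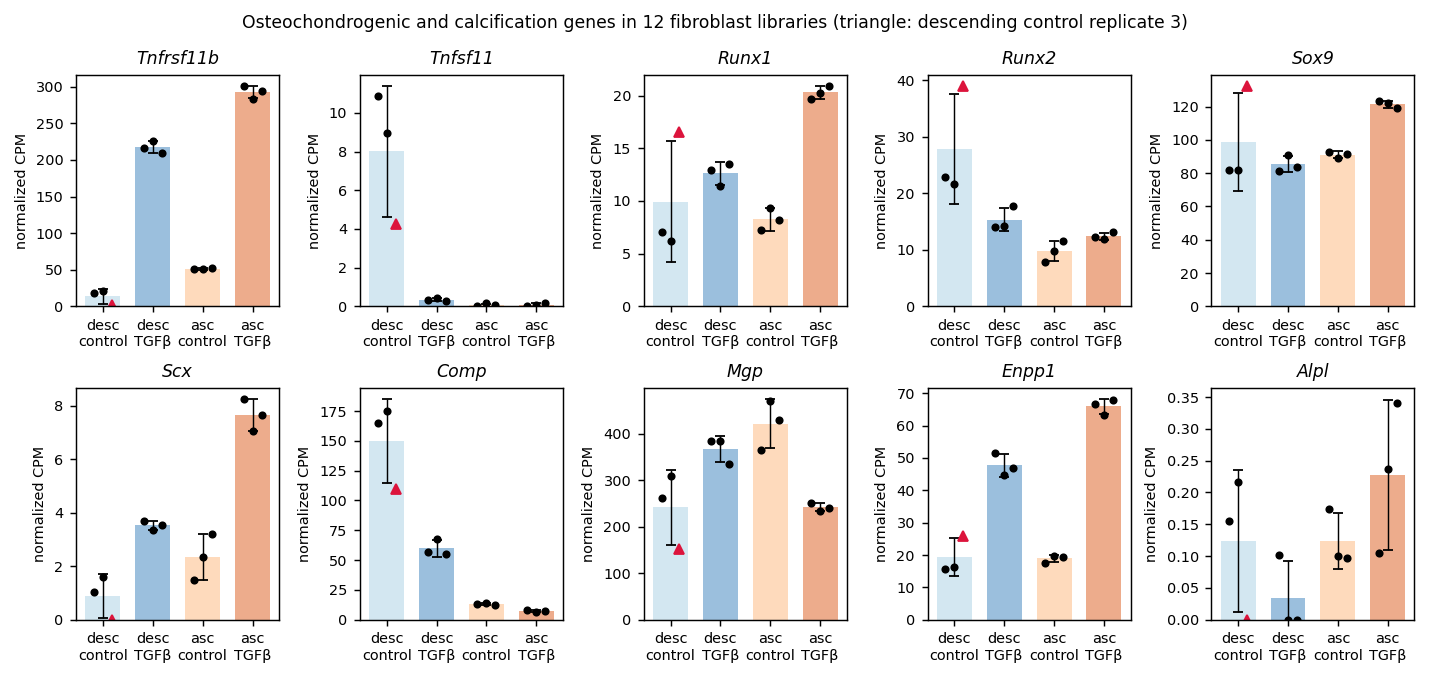
Level of each gene in the 12 libraries, as normalized CPM on a linear axis from 0, with a bar for the mean of each group, a line for 1 SD and a point per library. The red triangle is descending control replicate 3, which lies outside the range of the other 2 descending controls for all 10 genes; *Tnfrsf11b* and *Enpp1* are higher in every TGFβ library than in every control library, and *Comp* and *Tnfsf11* are high in descending control.

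The osteoprotegerin gene *Tnfrsf11b* (chromosome 15, 54250619 to 54278484 of GRCm38, minus strand) had the largest rise of the 10 genes in ascending fibroblasts. In ascending control replicates 1 to 3 it stood at 50.9, 50.4 and 52.5 normalized CPM, and with TGFβ at 301, 284 and 294. No library of one group came near the other, and the log2 fold change was 2.51 (SE 0.039, adjusted p = 1.46e-17), a 5.71-fold ratio of means. In descending control replicates 1 to 3 the levels were 18.2, 21.1 and 1.52, and with TGFβ 216, 226 and 209. The descending groups did not overlap either, with a log2 fold change of 3.98 (SE 0.87, adjusted p = 0.0478) that became 3.47 (SE 0.069, adjusted p = 3.60e-26) without descending control replicate 3. The order of the groups was descending control, ascending control, descending TGFβ and ascending TGFβ, with a gap between each group and the next. Ascending exceeded descending fibroblasts with TGFβ by a log2 fold change of 0.43 (SE 0.040, adjusted p = 4.04e-10). For the controls this difference was 1.91 (SE 0.81, adjusted p = 0.411) with all libraries and 1.40 (SE 0.071, adjusted p = 3.57e-09) without descending control replicate 3. The interaction, in which a negative value means that ascending fibroblasts had the lower TGFβ log2 fold change, was −1.46 (SE 0.79, adjusted p = 0.562), and −0.96 (SE 0.077, adjusted p = 3.24e-09) without that library.

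*Tnfsf11*, the gene of RANK ligand (chromosome 14, 78277445 to 78308043, minus strand), was expressed well above the floor in descending control and hardly elsewhere. Descending control replicates 1 to 3 had 279, 206 and 62 counts, or 10.9, 8.94 and 4.28 normalized CPM, and the descending TGFβ libraries 6, 8 and 6 counts. The descending groups were far apart, with a log2 fold change of −4.54 (SE 0.49, adjusted p = 0.00537), or −4.85 (SE 0.25, adjusted p = 2.87e-16) without descending control replicate 3. From the summed counts, 547 against 20, descending control was 25.6-fold higher (95% exact interval 16.4 to 42.2, counting error only). Ascending control libraries had 0, 3 and 1 counts and ascending TGFβ libraries 0, 1 and 4, so no change with TGFβ was detectable in ascending fibroblasts at this depth. Between the control sites the ratio of the summed counts, 547 to 4, was 137 (95% exact interval 53.4 to 506, counting error only). With TGFβ the remaining counts, 20 in descending and 5 in ascending libraries, stood in a ratio of 4.11 (1.497 to 14.01), and the gene was not tested there. The interaction was fitted on ascending libraries with 0 to 4 counts and adds nothing to the descending values. Bulk RNA cannot tell fewer cells that express a gene from less RNA per cell.

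The balance of the decoy receptor to its ligand was read as the ratio of *Tnfrsf11b* to *Tnfsf11* in normalized CPM per kilobase of exon. In descending control replicates 1 to 3 the ratio was 1.33, 1.88 and 0.282, and in descending TGFβ replicates 1 to 3 it was 561, 414 and 586. The ligand was thus at a level comparable to its decoy only in descending control, while in the 4 ascending libraries with any *Tnfsf11* count the ratio was 267 to 4758. These 4 ratios rest on 1 to 4 counts of *Tnfsf11*.

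**Figure D2:**
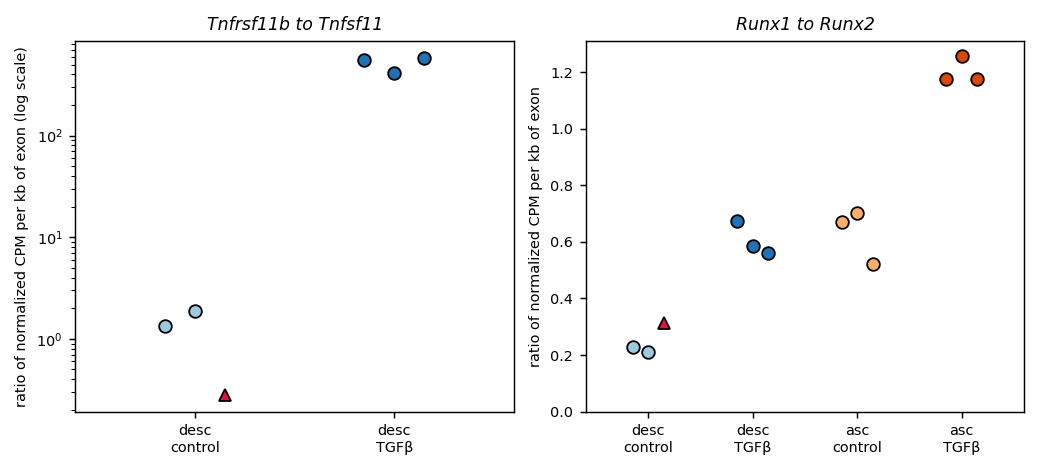
Ratios per kilobase of exon of *Tnfrsf11b* to *Tnfsf11* in the descending libraries (left, log axis) and of *Runx1* to *Runx2* in all 12 libraries (right, linear axis from 0), with 1 point per library and a red triangle for descending control replicate 3. The left ratio lies at 1.88 or less in control and at 414 or more with TGFβ. With all exons as length, the right ratio is above 1 in the 3 ascending TGFβ libraries and below 1 in the other 9. Its side of 1 depends on the length used.

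*Runx1* (chromosome 16, 92601466 to 92826149, minus strand) rose with TGFβ in ascending fibroblasts. Its levels were 7.22, 9.35 and 8.19 normalized CPM in ascending control replicates 1 to 3 and 19.7, 20.3 and 21.0 with TGFβ. The groups were well apart (log2 fold change 1.30, SE 0.097, adjusted p = 5.65e-09). In descending control replicates 1 to 3 they were 7.08, 6.20 and 16.6, and with TGFβ 12.9, 11.4 and 13.5. The third control lay above every treated library, and the test gave 0.34 (SE 0.41, adjusted p = 0.665), against 0.93 (SE 0.13, adjusted p = 6.44e-07) without it. With TGFβ ascending fibroblasts had more *Runx1* than descending ones by 0.69 on the log2 scale (SE 0.089, adjusted p = 3.11e-07). In control the site difference was −0.26 (SE 0.42, adjusted p = 0.772), and 0.32 (SE 0.15, adjusted p = 0.131) without descending control replicate 3, so that the sign turned on that library. The interaction was 0.94 (SE 0.44, adjusted p = 0.508) with it and 0.38 (SE 0.16, adjusted p = 0.137) without it.

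*Runx2* (chromosome 17, 44495987 to 44814797, minus strand) rose with TGFβ in ascending fibroblasts and had a negative log2 fold change in descending ones. Ascending control replicates 1 to 3 had 7.91, 9.80 and 11.5 normalized CPM and ascending TGFβ replicates 12.3, 11.8 and 13.1, a small rise whose groups nearly touched (log2 fold change 0.35, SE 0.12, adjusted p = 0.0232). This call held in 6 of 11 alternatives and was lost with DESeq2 (adjusted p = 0.0578), with 12 libraries in one fit, and without ascending control replicate 1, ascending TGFβ replicate 1 or ascending TGFβ replicate 3 (adjusted p = 0.056 to 0.13). In descending fibroblasts the controls had 22.8, 21.6 and 39.1 and the TGFβ replicates 14.1, 14.3 and 17.7. Every treated library lay below every control, with a log2 fold change of −0.87 (SE 0.28, adjusted p = 0.127), and −0.53 (SE 0.10, adjusted p = 5.62e-05) without descending control replicate 3. The order of the groups, none overlapping the next, was ascending control, ascending TGFβ, descending TGFβ and descending control. In control, ascending fibroblasts had less *Runx2* by a log2 fold change of −1.51 (SE 0.30, adjusted p = 0.0701), or −1.18 (SE 0.12, adjusted p = 5.84e-06) without descending control replicate 3. With TGFβ the difference was −0.31 (SE 0.10, adjusted p = 0.0181), which was lost with DESeq2, with 12 libraries in one fit (adjusted p = 0.718) and without descending TGFβ replicate 3 or ascending TGFβ replicate 2. The interaction was 1.21 (SE 0.32, adjusted p = 0.157), and 0.88 (SE 0.16, adjusted p = 0.000424) without descending control replicate 3. The antisense gene *Runx2os1* covers 519 bases (5.87%) of the *Runx2* exons, and its own level was at most 0.662 normalized CPM.

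The ratio of *Runx1* to *Runx2* per kilobase of exon was 0.670, 0.701 and 0.523 in ascending control replicates 1 to 3 and 1.17, 1.26 and 1.17 with TGFβ. In descending fibroblasts the controls had 0.228, 0.211 and 0.312 and the treated libraries 0.674, 0.587 and 0.562. The ratio was higher in every TGFβ library than in every control of the same site, also where *Runx1* alone overlapped. It was higher in every ascending than in every descending library of the same treatment. The side of 1 on which a ratio lies depends on the length used. With the longest transcript, ascending control held 1.41 ± 0.182 normalized CPM per kilobase of *Runx1* and 1.51 ± 0.278 of *Runx2*. Descending TGFβ held 2.15 ± 0.188 and 2.37 ± 0.314 (SD, n = 3).

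*Sox9* (chromosome 11, 112782224 to 112787760, plus strand) was well expressed in all groups. Ascending control replicates 1 to 3 had 92.9, 88.9 and 91.6 normalized CPM and ascending TGFβ replicates 123, 122 and 119. The rise was small and clear of the spread (log2 fold change 0.41, SE 0.039, adjusted p = 1.21e-07), a call lost with 12 libraries in one fit (adjusted p = 0.126). Descending control replicates 1 to 3 had 81.6, 81.8 and 133 and descending TGFβ replicates 81.6, 90.9 and 83.7. These groups overlapped, and the test gave −0.22 (SE 0.23, adjusted p = 0.608) with all libraries and 0.07 (SE 0.058, adjusted p = 0.361) without descending control replicate 3. With TGFβ the ascending libraries were higher by a log2 fold change of 0.51 (SE 0.046, adjusted p = 2.19e-10). Between the controls the value was −0.11 (SE 0.22, adjusted p = 0.817), and 0.17 (SE 0.050, adjusted p = 0.0194) without that library. The interaction was 0.62 (SE 0.23, adjusted p = 0.381) and 0.35 (SE 0.067, adjusted p = 0.000626) in turn.

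*Scx* (chromosome 15, 76457452 to 76459458, plus strand) was low and rose with TGFβ in ascending fibroblasts. Ascending control replicates 1 to 3 had 34, 47 and 66 counts (2.35 ± 0.869 normalized CPM, SD, n = 3) and ascending TGFβ replicates 158, 149 and 157 (7.65 ± 0.602). All treated libraries were above all controls, with a log2 fold change of 1.71 (SE 0.21, adjusted p = 3.44e-06), a call lost with 12 libraries in one fit (adjusted p = 0.114). Descending control replicates 1 to 3 had 27, 37 and 0 counts and descending TGFβ replicates 72, 62 and 75. The third descending control had no count, which allows up to 3 counts or 0.207 normalized CPM. The log2 fold change was 1.95 (SE 1.07, adjusted p = 0.334), and 1.42 (SE 0.26, adjusted p = 2.77e-05) without that library. With TGFβ ascending fibroblasts were higher by 1.11 (SE 0.15, adjusted p = 4.46e-07), while in control the groups overlapped (1.38, SE 1.14, adjusted p = 0.601; 0.83, SE 0.35, adjusted p = 0.0861 without descending control replicate 3). The interaction was −0.22 (SE 0.91, adjusted p = 0.913) with that library and 0.29 (SE 0.35, adjusted p = 0.682) without it. *Scx* lies within the span of the antisense gene *Bop1*, a ribosome biogenesis factor, with which it shares no exon base. *Bop1* itself stood at 43.0 ± 2.23 in ascending control and 64.3 ± 2.40 in ascending TGFβ (SD, n = 3), and the strand setting of the counting is not given in the sources used here.

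*Mgp* (chromosome 6, 136872435 to 136875823, minus strand), the calcification inhibitor, fell with TGFβ in ascending fibroblasts and had a positive log2 fold change in descending ones. Ascending control replicates 1 to 3 had 365, 471 and 428 normalized CPM and ascending TGFβ replicates 251, 234 and 241. The ascending groups were apart (log2 fold change −0.81, SE 0.064, adjusted p = 1.18e-08), and the value was −0.72 without ascending control replicate 2, the library with the high macrophage sum. The descending controls had 262, 309 and 153 in that order and the descending TGFβ replicates 384, 384 and 334. Every treated descending library lay above every control, with a log2 fold change of 0.60 (SE 0.26, adjusted p = 0.239), and 0.37 (SE 0.062, adjusted p = 1.08e-05) without descending control replicate 3. The site difference turned with treatment. In control, ascending fibroblasts were higher in every library (0.81, SE 0.27, adjusted p = 0.269, and 0.58, SE 0.088, adjusted p = 0.00018 without descending control replicate 3), and with TGFβ they were lower in every library (−0.60, SE 0.045, adjusted p = 7.03e-12). The interaction was −1.41 (SE 0.29, adjusted p = 0.0641), and −1.17 (SE 0.10, adjusted p = 1.80e-08) without descending control replicate 3.

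*Enpp1* (chromosome 10, 24637914 to 24712159, minus strand), the source of pyrophosphate, rose with TGFβ in both sites. Its levels were 17.7, 19.8 and 19.4 normalized CPM in ascending control replicates 1 to 3 and 66.7, 63.3 and 67.8 with TGFβ. The 3.48-fold ratio of means had a log2 fold change of 1.79 (SE 0.058, adjusted p = 9.71e-14). In descending control replicates 1 to 3 the levels were 15.5, 16.2 and 26.0, and with TGFβ 51.6, 44.6 and 46.9. The descending log2 fold change was 1.30 (SE 0.24, adjusted p = 0.0276), and 1.59 (SE 0.084, adjusted p = 4.27e-16) without descending control replicate 3. With TGFβ ascending fibroblasts were higher by 0.47 (SE 0.056, adjusted p = 5.85e-08). The controls overlapped (−0.02, SE 0.24, adjusted p = 0.975), and without descending control replicate 3 ascending was higher by 0.27 (SE 0.087, adjusted p = 0.0312). The interaction did not pass the threshold with that library (0.48, SE 0.24, adjusted p = 0.55) or without it (0.21, SE 0.10, adjusted p = 0.222).

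*Alpl* (chromosome 4, 137741733 to 137796384, minus strand), whose enzyme removes pyrophosphate, had 0 to 7 counts in every library. Descending control replicates 1 to 3 had 4, 5 and 0 counts, descending TGFβ replicates 2, 0 and 0, ascending control replicates 4, 2 and 2 and ascending TGFβ replicates 2, 5 and 7. It entered no test. The summed counts of the TGFβ groups, 14 in ascending and 2 in descending, stood in a ratio of 6.81 with a 95% exact interval of 1.56 to 61.8 for counting error only. Those of ascending TGFβ and ascending control, 14 and 8, stood in a ratio of 1.83, with an interval of 0.716 to 5.03 that includes 1.

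*Comp* (chromosome 8, 70373558 to 70382066, plus strand), the cartilage and tendon matrix gene, was mainly a gene of descending fibroblasts and fell with TGFβ in both sites. Descending control replicates 1 to 3 had 165, 175 and 109 normalized CPM and descending TGFβ replicates 56.7, 67.7 and 55.0. The fall had a log2 fold change of −1.33 (SE 0.21, adjusted p = 0.0179), or −1.51 (SE 0.064, adjusted p = 2.22e-18) without descending control replicate 3. Ascending control replicates 1 to 3 had 12.9, 13.8 and 12.6 and ascending TGFβ replicates 8.10, 6.77 and 7.60, again without overlap (−0.81, SE 0.11, adjusted p = 6.32e-06). Every ascending library lay below every descending one. In control the site difference was −3.51 (SE 0.22, adjusted p = 0.00243), or −3.68 (SE 0.062, adjusted p = 9.53e-14) without descending control replicate 3, and with TGFβ −2.99 (SE 0.088, adjusted p = 2.54e-21). The interaction was 0.52 (SE 0.24, adjusted p = 0.505), and 0.70 (SE 0.13, adjusted p = 0.000304) without descending control replicate 3, the change with TGFβ being the less negative in ascending fibroblasts.

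**Figure D3:**
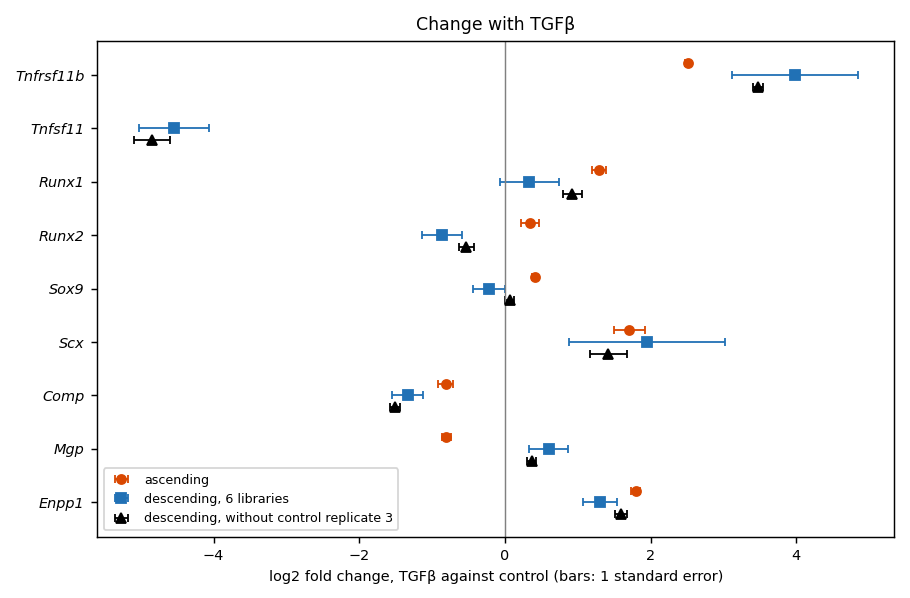
Log2 fold change with TGFβ of the 9 genes tested in at least 1 site, with bars of 1 standard error, for ascending fibroblasts (circles), descending fibroblasts (squares) and descending fibroblasts without control replicate 3 (triangles). *Mgp* lies at −0.81 in ascending and 0.60 in descending fibroblasts and *Runx2* at 0.35 and −0.87, while *Tnfrsf11b*, *Enpp1* and *Comp* share their direction; *Tnfsf11* was tested in descending fibroblasts only.

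Between the sites, *Comp* and *Tnfsf11* were lower in ascending control, 2 of 9 genes tested against a background of 2.65% (1.19% higher and 1.47% lower), *Tnfsf11* having passed the filter through descending control only. Without descending control replicate 3, *Tnfrsf11b*, *Mgp*, *Enpp1* and *Sox9* were higher and *Runx2* was lower as well, 7 of 9 against a background of 31.6%. With TGFβ, *Scx*, *Runx1*, *Sox9*, *Enpp1* and *Tnfrsf11b* were higher and *Comp*, *Mgp* and *Runx2* lower in ascending fibroblasts, 8 of 8 tested against a background of 36.3%. The ranges of the sites did not overlap for 5 of 9 genes in control, where 35.3% of all genes tested did not (8 of 9 and 55% without descending control replicate 3), and for 8 of 8 with TGFβ, where 46.1% did not. A fit of all 12 libraries together left *Comp* alone of the 10 genes past the threshold between the sites with TGFβ, and called 1106 of all genes. A fit of the 11 libraries without descending control replicate 3, chosen after seeing the data, called 9 of the 10 genes. These include *Tnfsf11*, which passed the filter of that fit through descending control only, so its call adds no support. The number of all genes that the 11-library fit called there is not given, so the 9 is not read as a result about these genes.

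**Figure D4:**
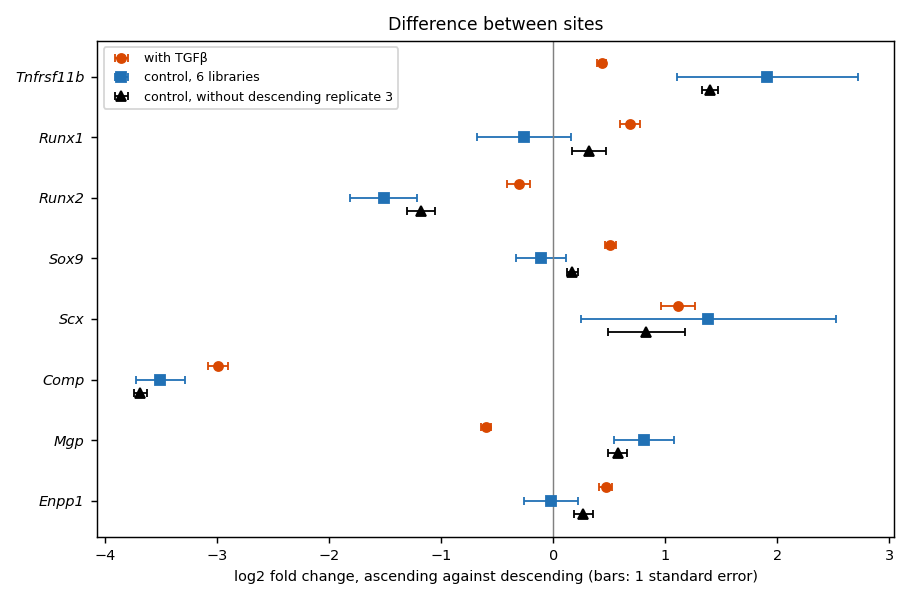
Log2 fold change of ascending against descending fibroblasts, with bars of 1 standard error, with TGFβ (circles), in control (squares) and in control without descending replicate 3 (triangles); *Tnfsf11* is not drawn, since it was at or near the floor in ascending fibroblasts. *Comp* lies at −3.51 and −2.99 in control and TGFβ, and *Mgp* at 0.81 in control and −0.60 with TGFβ.

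None of the 9 genes passed the interaction test with edgeR over the 12 libraries, against a background of 0.806% of 14637 genes. At an unadjusted p under 0.05 the number was 4 (*Runx2*, *Sox9*, *Tnfsf11* and *Mgp*), where 10% of all genes tested passed, and DESeq2 called 3 (*Mgp*, *Runx2* and *Tnfsf11*) against a background of 2.87%. Without descending control replicate 3 edgeR called 6, with *Runx2*, *Sox9*, *Tnfsf11* and *Comp* positive and *Tnfrsf11b* and *Mgp* negative, against a background of 13.5% (6.07% positive and 7.4% negative). The counts of 4, 3 and 6 include *Tnfsf11*, whose ascending change was fitted on 0 to 4 counts per library.

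Levels of different genes were compared only per kilobase of exon. On that scale *Mgp* was the highest of the 10 genes in every group, with 355 ± 44.7 normalized CPM per kilobase in ascending control, 309 ± 24.04 in descending TGFβ, 204 ± 7.05 in ascending TGFβ and 203 ± 67.4 in descending control (SD, n = 3). The next place changed hands. It was held by *Comp* in descending control (50.5 ± 11.9), by *Sox9* in ascending control (22.05 ± 0.495) and by *Tnfrsf11b* in both TGFβ groups (77.1 ± 2.98 in descending, 104 ± 3.07 in ascending). The lowest places were held by *Tnfsf11* in ascending and *Alpl* in descending fibroblasts, at 0.0361 normalized CPM per kilobase or less. In ascending control *Tnfsf11* (0.0296 ± 0.0342) and *Alpl* (0.0307 ± 0.0108) did not differ beyond their spread, nor did they in ascending TGFβ (0.0361 ± 0.0455 and 0.0564 ± 0.0294). With the length of the longest transcript in place of all exons, these highest and lowest places were the same.

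Genes of the same programs that are not among the 10 were read from lists of textbook genes, of which 20 are of bone, 26 of cartilage, 15 of tendon, 20 of mineralization and 14 of the RANK ligand system and osteoclasts. With TGFβ in ascending fibroblasts, where 28.2% of all genes tested rose and 27.6% fell, each list moved both ways. The counts of the other comparisons are to be read against the same shares, which were 18.1% higher and 18.2% lower in ascending fibroblasts between the sites with TGFβ, and 3.59% rising and 4.48% falling in descending fibroblasts, or 26.6% and 26.3% without descending control replicate 3. All 20 mineralization genes, and 17 to 19 of the larger lists of bone and cartilage, had more than 3 counts in at least 1 library. Of the list genes named below, a fit of 12 libraries together lost the ascending TGFβ calls of *Cbfb*, *Omd*, *Pth1r*, *Bglap2*, *Mkx*, *Tnc*, *Tgm2*, *Gas6*, *Csf1* and *Il34* (adjusted p = 0.0545 to 0.705). It also lost the TGFβ site calls of *Msx1*, *Pth1r*, *Sox6* and *Acp5* (adjusted p = 0.105 to 0.78). Some genes counted as called passed the filter on low counts only through the group where they are high, and their calls add no support to the counts: *Bglap2*, *Acan*, *Mkx* and *Abcc6* with TGFβ in ascending fibroblasts, *Acan*, *Col10a1*, *Eya1*, *Eya2*, *Nt5e* and *Tnfrsf11a* between the sites with TGFβ, and *Sp7*, *Dlx3*, *Bglap2*, *Cilp2*, *Eya1* and *Abcc6* in descending fibroblasts without descending control replicate 3.

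Of the bone list, 9 genes were tested in ascending fibroblasts, of which 3 rose with TGFβ, 3 fell and 3 did not pass, with a median log2 fold change of 0.19 against −0.0044 over all genes tested. *Atf4*, a stress and osteoblast factor, rose by 0.45 (SE 0.035, adjusted p = 9.82e-09) and *Cbfb*, the partner subunit of the Runx factors, by 0.34 (SE 0.049, adjusted p = 1.50e-05). Osteomodulin (*Omd*), a proteoglycan of mineralized matrix, had a log2 fold change of −1.32 (SE 0.20, adjusted p = 3.28e-05) and the parathyroid hormone receptor *Pth1r* of −0.89 (SE 0.29, adjusted p = 0.0173; also lost without ascending control replicate 3, ascending TGFβ replicate 2 or ascending TGFβ replicate 3). The osteocalcin gene *Bglap2*, the other one called lower, had 13 to 31 counts per library in control and 3 to 5 with TGFβ. Reads of *Bglap2* are uncertain because *Bglap* is a near-identical copy. Between the sites with TGFβ, 2 of 8 tested were higher and 5 lower in ascending fibroblasts, with a median of −0.47. The homeobox factor *Msx1* was higher (1.62, SE 0.20, adjusted p = 9.19e-08) and *Dlx5*, which activates osteoblast genes, was lower (−2.35, SE 0.28, adjusted p = 4.62e-08), as was *Pth1r* (−1.96, SE 0.22, adjusted p = 2.34e-08). In descending fibroblasts 1 rose and 1 fell of 9, and 4 rose and 6 fell of 11 without descending control replicate 3.

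Of the cartilage list, 14 genes were tested in ascending fibroblasts, of which 4 rose with TGFβ and 2 fell. The cartilage collagen gene *Col2a1* went from 60.3 ± 1.81 to 169 ± 18.3 normalized CPM in ascending (log2 fold change 1.48, SE 0.062, adjusted p = 2.87e-12) and from 148 ± 21.3 to 616 ± 45.5 in descending fibroblasts (2.05, SE 0.15, adjusted p = 0.0018, and 1.94 without descending control replicate 3; SD, n = 3). *Col11a1*, which co-assembles with it, rose by 1.73 (SE 0.036, adjusted p = 3.98e-16) and matrilin-3 (*Matn3*) by 1.18 (SE 0.16, adjusted p = 9.16e-06). *Sox5*, a partner of Sox9 in cartilage, had a log2 fold change of −1.58 (SE 0.17, adjusted p = 4.45e-07) and *Matn2* of −0.96 (SE 0.079, adjusted p = 2.15e-08). Aggrecan (*Acan*), the main proteoglycan of cartilage, had 218 counts in ascending TGFβ, 27 in ascending control, 3 in descending TGFβ and 0 in descending control libraries. The ratio of ascending to descending TGFβ was 70.7 (95% exact interval 23.9 to 346). With TGFβ the sites differed in 11 of 14 tested, where 36.3% of all genes did, 7 higher in ascending (also *Sox6*, 1.35, SE 0.18, adjusted p = 4.20e-07) and 4 lower (among them *Col2a1*, −1.87, SE 0.055, adjusted p = 3.35e-21). In descending fibroblasts 2 rose and 1 fell of 12 tested, and 5 rose and 4 fell of 13 without descending control replicate 3.

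Of the tendon list, 2 of 12 tested rose in ascending fibroblasts and 5 fell, with a median of −0.085. The factor *Egr2* (3.01, SE 0.22, adjusted p = 4.85e-09), which takes part in tendon development, rose, and the other gene called higher, the tendon factor *Mkx*, had 8 to 17 counts per library in control and 29 to 31 with TGFβ. The matrix genes *Col14a1* (−2.28, SE 0.058, adjusted p = 4.93e-15), fibromodulin *Fmod* (−1.44, SE 0.082, adjusted p = 1.63e-10) and tenascin C *Tnc* (−0.28, SE 0.045, adjusted p = 5.52e-05) fell. *Col14a1* had the largest site difference of the tested genes of this list, with 31.3 ± 3.25 normalized CPM there and 1.81 ± 0.352 in descending fibroblasts with TGFβ (4.12, SE 0.13, adjusted p = 1.28e-20). Asporin (*Aspn*) was lower in ascending fibroblasts with TGFβ (−2.42, SE 0.10, adjusted p = 1.74e-17), as was *Tnc* (−1.44, SE 0.048, adjusted p = 5.12e-20). In that comparison 4 of 13 were higher and 5 lower. In descending fibroblasts 1 rose and 1 fell of 13, and 2 rose and 6 fell without descending control replicate 3.

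Of the mineralization list, 8 of 18 tested rose in ascending fibroblasts and 4 fell, with a median of 0.069. The phosphate transporter *Slc20a1* (1.20, SE 0.054, adjusted p = 7.81e-12) and transglutaminase *Tgm2* (0.97, SE 0.050, adjusted p = 4.14e-11) rose. *Smpd3*, a sphingomyelinase needed for bone mineralization (−0.999, SE 0.076, adjusted p = 7.44e-09), and *Gas6*, a vitamin K dependent Gla protein like Mgp (−0.46, SE 0.079, adjusted p = 0.000104), fell. *Tgm2* was the one gene of the 5 lists past the interaction test over 12 libraries (−2.55, SE 0.44, adjusted p = 0.0255). Without descending control replicate 3 its value was −2.20 (SE 0.092, adjusted p = 3.03e-14). Its descending levels were 12.1 ± 6.15 normalized CPM in control and 140 ± 9.99 with TGFβ, against ascending levels of 66.3 ± 1.07 and 130 ± 9.47 (SD, n = 3). The interaction test without that library called 3 of 11 bone, 1 of 14 cartilage, 2 of 13 tendon, 6 of 19 mineralization and 4 of 10 RANK ligand and osteoclast genes, against 13.5% of all genes. For this test, genes that passed the filter through a single group were not listed, so these counts are not read as support. *Atp6v0d2* of the last list had 6 to 124 counts per library in ascending control and at most 12 in the other groups. With TGFβ 4 of 17 mineralization genes were higher and 7 lower in ascending fibroblasts. Among them osteopontin (*Spp1*), an inhibitor of crystal growth, was at 77.4 ± 4.97 in ascending against 186 ± 11.8 in descending fibroblasts (−1.26, SE 0.050, adjusted p = 2.98e-18). In descending fibroblasts 2 rose and 2 fell of 18, and 7 rose and 5 fell without descending control replicate 3.

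Of the RANK ligand and osteoclast list, 2 of 8 tested rose in ascending fibroblasts and 2 fell. *Csf1*, the growth factor that osteoclast precursors need along with RANK ligand, rose by 0.18 (SE 0.032, adjusted p = 0.000151) and stood at 2206 to 2628 normalized CPM as a group mean in all 4 groups. *Il34*, which binds the same receptor, had a log2 fold change of −0.80 (SE 0.12, adjusted p = 1.77e-05). With TGFβ 4 of 9 were lower in ascending fibroblasts, among them the collagenase cathepsin K (*Ctsk*, −0.68, SE 0.051, adjusted p = 5.01e-12) and *Itgb3* (−1.05, SE 0.093, adjusted p = 2.08e-10). *Acp5* was higher (0.92, SE 0.34, adjusted p = 0.0366), a call lost in every alternative but DESeq2's size factors. In descending fibroblasts 1 rose of 9, and 2 rose and 1 fell without descending control replicate 3.

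**Figure D5:**
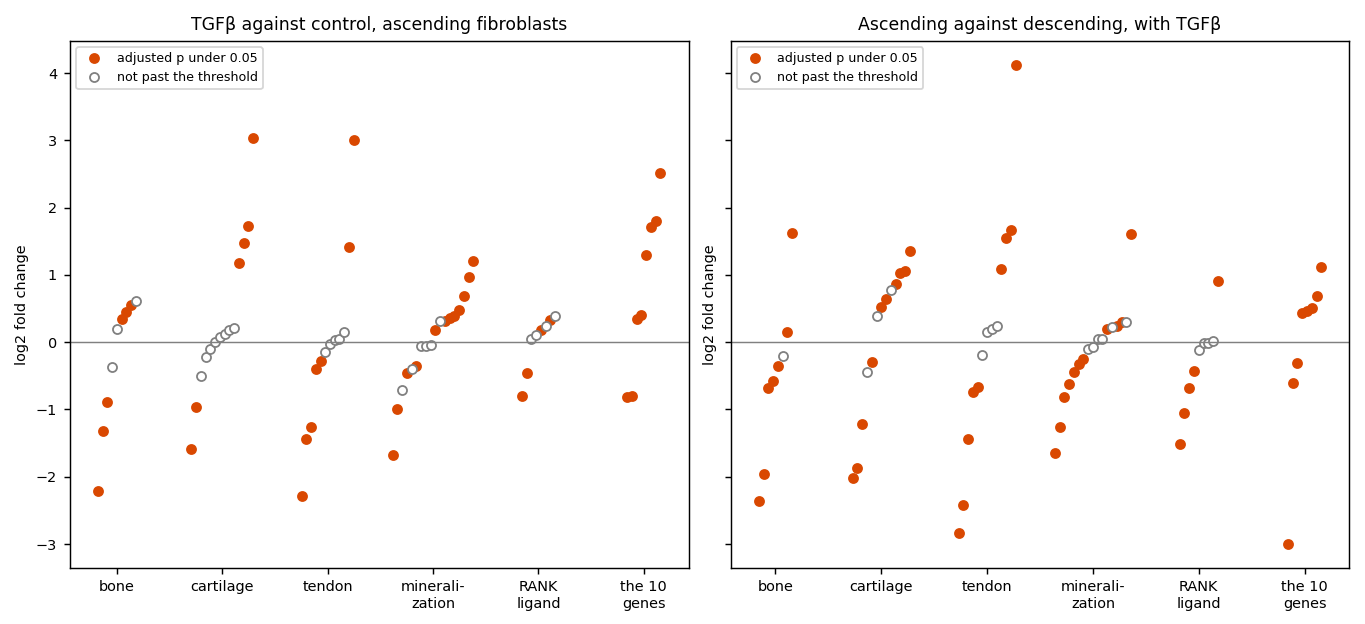
Log2 fold change of each tested gene of the 5 lists and of the 10 genes, with TGFβ in ascending fibroblasts (left) and between the sites with TGFβ (right); filled points passed an adjusted p under 0.05, and points are ordered by value within a list. Each list holds genes on both sides of 0; *Acan* is not drawn on the right because it was at or under 3 counts in every descending library.

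The genes with the pattern most like each of the 10 were found by Pearson's r of log2 normalized CPM over the 11 libraries other than descending control replicate 3, among 14637 genes. The libraries fall into 4 groups, so r mostly compares the order of group levels, and no p is attached. *Tnfrsf11b* was nearest to *Itgb5* (r = 0.998), *Gxylt2* and *Actn1*, and *Enpp1* to *Cct2* (0.995), *Creb3l2* and *Serp1*. *Comp* was nearest to *Akap12* (0.992), *Ebf2* and *Kcnk3*, *Runx1* to *Egln1* (0.988), *Rint1* and *Pde5a*, and *Tnfsf11* to *Pde3b* (0.978), *Nudt4* and *Grem1*. *Sox9* was nearest to *Slc39a1* (0.974), *Tubb5* and *Pcdhga8*, *Scx* to *Stk4* (0.973), *Tyms* and *Eif3c*, and *Runx2* to *Stag1* (0.956), *Thap12* and *Fam120aos*. The pattern of *Mgp* had the least close neighbours of the 9 genes compared, *Atp6v0e2* (0.930), *Cmklr1* and *Atf3*.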

How the data were processed

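RNA-seq libraries of 12 fibroblast cultures were analysed from the table of unnormalized read counts per gene symbol that the authors deposited. The submitters' processing notes name FastQC, STAR, featureCounts and DESeq2 and the build mm10; versions, strand setting and the handling of multi-mapping reads are not given in the sources used here. Groups were taken from the labels. Genes were filtered with filterByExpr (minimum count 10, minimum total 15), scaled by TMM and tested with edgeR 4.0.16 in R 4.3.3 by the quasi-likelihood F-test, with Benjamini-Hochberg adjustment over all genes tested and a threshold of 0.05. Each of the 4 pairwise comparisons was fitted on its 6 libraries and the interaction on all 12. The procedure was tested on simulated data with a fixed dispersion and no outlying library, which do not cover the spread caused by descending control replicate 3. Exact intervals cover 95% of counting error. Exon lengths and coordinates came from GENCODE vM21 (GRCm38) and promoters from RefSeq (GRCm38.p6).

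The 10 genes are named in every comparison; of each list, up to 3 genes per direction with the smallest adjusted p are eligible in the ascending TGFβ and the TGFβ site comparison, and *Acan*, *Tgm2* and *Col2a1* in other comparisons were added after their values were seen. One gene that the rule names is not reported here. Called genes whose lower group alone would fail the filter were listed for the pairwise comparisons. The genes and lists were chosen with earlier results of these data known. Alternatives were DESeq2 1.42.0 (Wald test), its size factors, no filter, a replicate block, all 12 libraries in one fit, each library left out, and transcript length. A fit of 11 libraries was added after seeing the data.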

Additional observations from a re-analysis of the deposited data

Results flagged for a closer look

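*Runx2* and *Mgp* were flagged because every TGFβ library lay on one side of every control in ascending fibroblasts and on the other side in descending fibroblasts. Treated and control ranges did not overlap for 61.3% of all genes tested in ascending and 43.5% in descending fibroblasts. How many of all genes lay apart on opposite sides was not counted, so the pattern is not called rare. For *Runx2*, higher with TGFβ in ascending and lower in descending fibroblasts, the interaction was 1.21 (SE 0.32) and did not pass the threshold in edgeR's test (adjusted p = 0.157). For *Mgp*, with treated libraries below the controls in ascending and above them in descending cultures, the interaction was −1.41 (SE 0.29, edgeR adjusted p = 0.0641). Both calls changed with the processing: without descending control replicate 3 the edgeR values were 0.88 (SE 0.16, adjusted p = 0.000424) for *Runx2* and −1.17 (SE 0.10, adjusted p = 1.80e-08) for *Mgp*, and DESeq2 called both over all 12 libraries. The explanation of neither pattern was tested.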

How the results depend on the processing

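The ascending TGFβ and TGFβ site comparisons kept 7 to 8 of the 10 genes past the threshold with any 1 library left out (7146 to 7427 and 4340 to 4656 of all genes), whereas the comparisons with descending controls depended on single libraries. With 1 library left out, the descending TGFβ comparison called 0 to 8 of the 10 genes (213 to 7576 of all genes), the control site comparison 1 to 7 (33 to 4631) and the interaction 0 to 6 (25 to 2022); the highest values were those without descending control replicate 3. The sign changed with a left-out library for *Sox9* with TGFβ in descending fibroblasts (−0.33 to 0.07 on the log2 scale), for *Runx1* (−0.51 to 0.32), *Sox9* (−0.23 to 0.17) and *Enpp1* (−0.15 to 0.27) between control sites, and for *Scx* in the interaction (−0.87 to 0.29). In each case this was the fit without descending control replicate 3 (0.066 for *Sox9* with TGFβ), and also without ascending control replicate 1 for *Enpp1* (0.033) and ascending control replicate 3 for *Scx* (0.072). With 12 libraries in one fit, 5 of the 10 genes were called in the ascending TGFβ (*Runx2*, *Sox9* and *Scx* were lost), 4 in the control site and 1 in the TGFβ site comparison, and 2338, 1545 and 1106 of all genes, with 3570 in the descending TGFβ comparison. The fit of 11 libraries without descending control replicate 3, chosen after seeing the data, called 8 of the 10 in the descending TGFβ (7704 of all genes) and 8 in the control site comparison (4953), and gave 0.065 for *Sox9* with TGFβ in descending fibroblasts and 0.31, 0.16 and 0.26 for *Runx1*, *Sox9* and *Enpp1* between control sites. DESeq2 called 2242 genes in the descending TGFβ, 1034 in the control site and 419 in the interaction test, in the last with 3 of the 10; without a filter the interaction called 56. Deviations of same-numbered libraries from their group means had correlations of −0.022 to 0.062. With 3 libraries per group, this cannot show whether a replicate number stands for a shared animal or batch. With the replicate block, 0 of the 10 genes were called in the descending TGFβ (95 of all genes) and 0 in the control site comparison (0 of all genes, *Enpp1* at 0.023), and 50 of all genes in the interaction. DESeq2's size factors moved the median log2 fold change of all genes by at most 0.011. Depth limits *Alpl* everywhere and *Tnfsf11* in ascending fibroblasts.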
